A study of Mus musculus with 13 samples.

Results

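NF-kB is a dimeric transcription factor. Here 10 of the genes that encode its subunits and inhibitors were followed in vessel-enriched brain fractions after systemic inflammation. The 10 genes were chosen by name and found by Ensembl identifier among the 47643 genes of the deposited count table: the subunit genes *Nfkb1*, *Nfkb2*, *Rel*, *Rela* and *Relb*, and the inhibitor and regulator genes *Nfkbia*, *Nfkbie*, *Nfkbiz*, *Bcl3* and *Tnfaip3*. All 10 passed the filter on low counts and were among the 17285 genes tested. In resting cells the dimers are held in the cytosol by IkB proteins. Signals from Toll-like, interleukin-1 and TNF receptors activate the IKK kinase complex, IkB is degraded, and the dimers enter the nucleus and switch on inflammatory genes, among them their own inhibitors. In brain vessels the pathway is known for the induction of leukocyte adhesion molecules and chemokines by endothelial cells.

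The samples were vessel-enriched brain fractions, 1 from each of 13 CD1 mice, all males 8 to 10 weeks old. There were 3 groups, with 4 mice given vehicle and no LPS (sham-vehicle), 5 given LPS and vehicle (LPS-vehicle) and 4 given both LPS and the compound CPD-4645 (LPS-CPD-4645). LPS of Salmonella was injected intraperitoneally at 3 mg/kg at 0, 6 and 24 h, and tissue was taken at 28 h. CPD-4645 blocks MAGL (monoacylglycerol lipase), the main enzyme that breaks down the endocannabinoid 2-AG, and was injected subcutaneously at 10 mg/kg, 30 min after each LPS dose per the labels, in DMSO, Cremophor and saline. Another delay also appears in the study's text, and that of the labels is given here. The comparisons ask which of these genes LPS changed and whether CPD-4645 altered that change. The compound also partly inhibits the hydrolases ABHD6 and FAAH in brain, per the study. The study regards the inhibition of FAAH as too weak for an effect and proposes that most effects may come from MAGL. In these data the part of these hydrolases and that of MAGL cannot be told apart. No group received CPD-4645 without LPS, so an action of the compound on its own was not measured. No perfusion preceded collection, so blood cells are part of the material, and the fraction is a mixture in which fewer cells of a type and less RNA per cell cannot be told apart. All 6 endothelial markers were detected, with a summed level of 89.9 to 201 CPM per kb of exon over the 13 libraries, but neuron markers (*Rbfox3*, *Syp*, *Snap25*, *Syt1* and *Slc17a7*) summed to 2530 to 3480 CPM per kb. Counts per library ran from 7813559 (LPS-vehicle mouse 3) to 55133373. Mitochondrial genes held 6.47% to 12.71% of the counts in sham-vehicle mice, 4.84% to 7.05% in LPS-vehicle mice and 3.97% to 8.17% in LPS-CPD-4645 mice, and the part of this difference in the results was not tested. Levels are given as CPM, the count of a gene per 1000000 of the TMM-scaled library total, and p values are those of edgeR's quasi-likelihood test, adjusted by Benjamini-Hochberg over all 17285 genes. "Rose" and "fell" are used for an adjusted p of at most 0.05.

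Upstream sequence is shown for 5 of the members because the letters of the NF-kB binding motif can be read in it. RefSeq promoters (GRCm38.p6, the build of the counts) were matched by symbol for 7 of the 10 members: *Nfkb2*, *Rel*, *Rela*, *Nfkbia*, *Nfkbie*, *Bcl3* and *Tnfaip3*. Each window holds 300 bases around an annotated start site, and *Nfkb2* and *Tnfaip3* have several. The kappaB consensus, a motif of 10 bases searched on both strands, was present in 6 of the 7 genes, in 8 of their 10 windows, and in 8.46% of all 32851 windows. The 250 bases before the start site are printed in lower case, 5′ to 3′ on the strand of the gene, with each consensus match in capitals.
Nfkb2, chr19:46304487-46304736, plus strand: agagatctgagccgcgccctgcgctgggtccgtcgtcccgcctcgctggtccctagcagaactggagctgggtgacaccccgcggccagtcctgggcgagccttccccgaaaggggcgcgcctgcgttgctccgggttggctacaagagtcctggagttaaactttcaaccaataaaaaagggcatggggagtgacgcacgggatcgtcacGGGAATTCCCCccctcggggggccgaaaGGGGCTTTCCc
Rel, chr11:23770970-23771219, minus strand: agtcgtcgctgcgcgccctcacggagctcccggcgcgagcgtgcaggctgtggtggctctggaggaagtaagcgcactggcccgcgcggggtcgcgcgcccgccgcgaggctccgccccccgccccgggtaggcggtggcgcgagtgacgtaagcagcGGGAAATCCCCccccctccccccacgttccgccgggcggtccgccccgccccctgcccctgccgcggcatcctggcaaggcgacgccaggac
Nfkbia, chr12:55492648-55492897, minus strand: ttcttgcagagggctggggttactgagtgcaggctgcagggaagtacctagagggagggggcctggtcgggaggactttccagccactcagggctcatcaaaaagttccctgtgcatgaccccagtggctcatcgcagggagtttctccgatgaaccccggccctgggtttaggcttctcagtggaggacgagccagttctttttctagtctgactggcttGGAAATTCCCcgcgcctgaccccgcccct
Nfkbie, chr17:45555450-45555699, plus strand: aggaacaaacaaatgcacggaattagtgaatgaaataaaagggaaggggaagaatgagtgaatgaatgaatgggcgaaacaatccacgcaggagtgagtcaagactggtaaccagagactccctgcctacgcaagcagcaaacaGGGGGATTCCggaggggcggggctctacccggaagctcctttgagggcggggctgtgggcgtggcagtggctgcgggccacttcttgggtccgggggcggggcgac
Tnfaip3, chr10:19015411-19015660, minus strand: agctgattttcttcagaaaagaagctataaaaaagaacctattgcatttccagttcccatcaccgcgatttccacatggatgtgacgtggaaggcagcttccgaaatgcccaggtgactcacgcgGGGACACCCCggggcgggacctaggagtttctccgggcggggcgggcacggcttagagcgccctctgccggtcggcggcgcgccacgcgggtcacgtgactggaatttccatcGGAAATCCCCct
*Nfkb2* held a pair of overlapping matches and a single one close to its first start site, *Rel* an overlapping pair, *Tnfaip3* 2 separate matches, and *Nfkbia* and *Nfkbie* 1 each. In *Bcl3* the match, GGGAAGTCCC, lay just after the start site. No match was found in the window of *Rela*, which says only that the motif is not in those 300 bases. A match is a description of sequence and was not tested for binding. *Relb* and *Bcl3* lie 179.0 kb apart on chromosome 7 of GRCm38, and the other 8 members are spread over chromosomes 3, 10, 11, 12, 16, 17 and 19.

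After LPS, all 10 members rose, and 7 of them rose at least 2-fold: *Bcl3*, *Nfkb2*, *Tnfaip3*, *Nfkbia*, *Nfkbiz*, *Relb* and *Nfkbie*. Over all genes tested 11.1% rose, and 4.68% rose at least 2-fold. With limma-voom, the study's own test, 8 members rose, 6 of them at least 2-fold, and with DESeq2 10 and 7. None of the members fell, a count of 0 that was also 0 at an unadjusted p under 0.05 and with limma-voom and DESeq2, where 8.86% of all genes fell and 0.995% fell at least 2-fold in edgeR's test. The median log2 fold change of the members was 1.63, beside a median of -0.001 over all genes. For 9 of the 10 members the lowest LPS-vehicle value exceeded the highest sham-vehicle value, an arrangement seen in 9.68% of the genes tested upward and 8.44% downward. The plot of levels by library shows these values for each member.

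**Figure D1:**
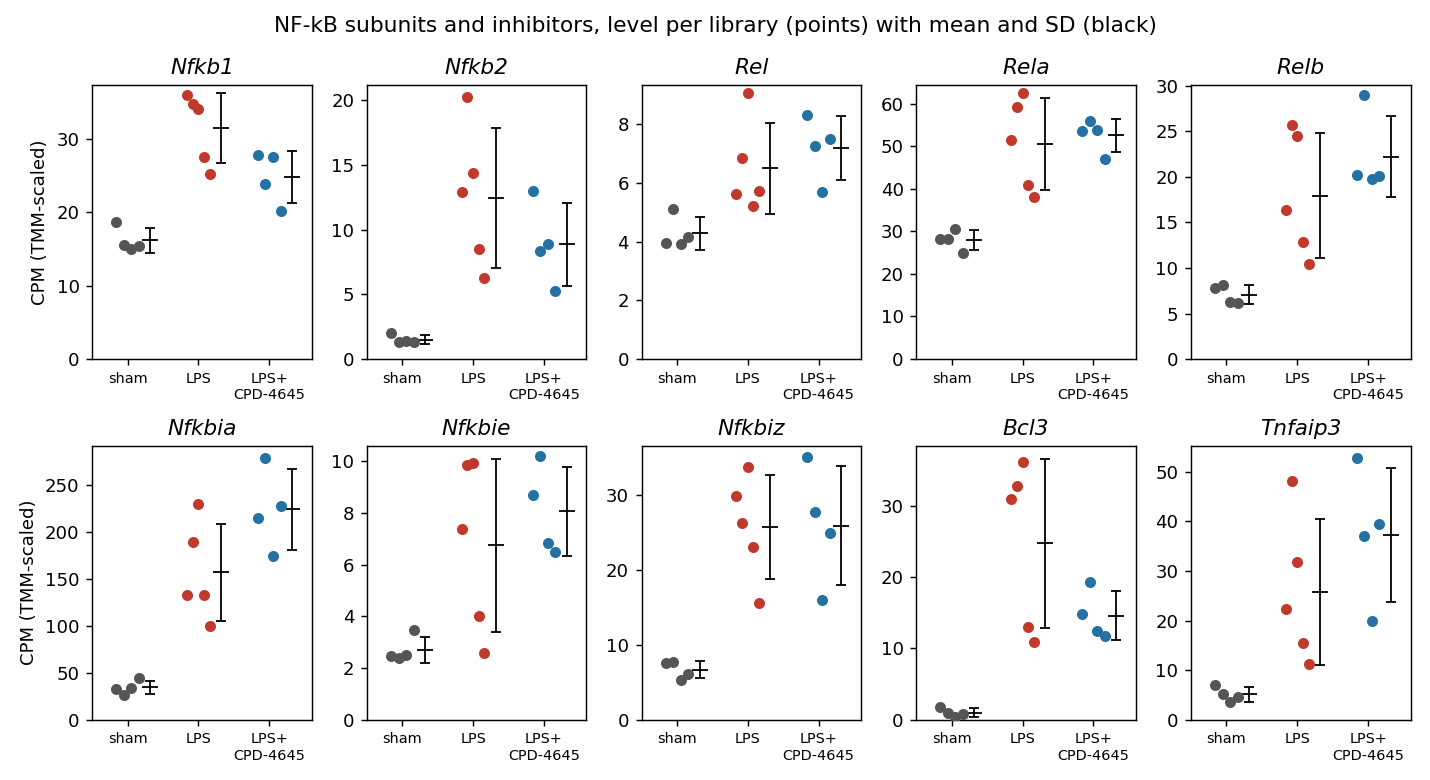
Level of each member in CPM (y axis, linear, starting at 0) in the 4 sham-vehicle, 5 LPS-vehicle and 4 LPS-CPD-4645 libraries (x axis). Points are single mice in the order of their numbers, and black bars are the group mean and SD. Only *Nfkbie* has an LPS-vehicle mouse within the range of the sham-vehicle mice, and every member overlaps between the LPS-vehicle and LPS-CPD-4645 groups.

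Of the subunits, *Nfkb2*, whose p100 product is processed to the p52 subunit of the non-canonical pathway, changed most. It stood at 2.03, 1.29, 1.39 and 1.28 CPM in sham-vehicle mice 1 to 4 and at 12.9, 20.2, 14.4, 8.52 and 6.29 CPM in LPS-vehicle mice 1 to 5. The lowest LPS-vehicle mouse was thus well above the highest sham-vehicle mouse. The log2 fold change was 3.03 (SE 0.34), 8.18-fold, with an adjusted p of 4.1e-06 from edgeR's test. *Nfkb2* (chromosome 19, 46304320 to 46312385) overlaps *Psd* on the other strand, whose counts of 1785 to 16960 per library did not pass the test after LPS (log2 fold change -0.21, adjusted p = 0.25 from edgeR). Which strand was counted is not given in the sources used here, so a share of *Psd* reads in *Nfkb2* cannot be told apart. *Relb* (chromosome 7, 19606217 to 19629438), the usual partner of p52, averaged 7.08 ± 1.01 CPM (SD, n = 4) in sham-vehicle and 18.0 ± 6.82 CPM (n = 5) in LPS-vehicle mice and rose 2.51-fold. *Nfkb1* (chromosome 3, 135584655 to 135691547), which encodes p105 and its product p50, averaged 16.2 ± 1.73 and 31.5 ± 4.77 CPM in these groups and rose 1.94-fold. It shares its strand with the overlapping *Gm43430*, which had at most 5 counts in any library.

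*Rela* (chromosome 19, 5637483 to 5648130), which encodes p65, the main activating subunit, rose 1.79-fold, from 25.0 to 30.5 CPM in the sham-vehicle mice to 38.1 to 62.5 CPM in the LPS-vehicle mice. *Rel* (chromosome 11, 23736847 to 23770970), which encodes c-Rel, a subunit best known from lymphocytes and myeloid cells, had the smallest change of the members, 1.49-fold (log2 fold change 0.58, SE 0.19, adjusted p = 0.042 from edgeR). Its sham-vehicle mice ran from 3.90 to 5.11 CPM and its LPS-vehicle mice from 5.20 to 9.07 CPM, so the groups adjoin. The rise of *Rel* did not pass without sham-vehicle mouse 1, 3 or 4, LPS-vehicle mouse 2 or 3, or CPD-4645-treated mouse 2 or 4, at log2 fold changes of 0.54, 0.54, 0.56, 0.55, 0.45, 0.58 and 0.58. It was also not called without the pair of shallowest libraries (mouse 3 of the LPS-vehicle and mouse 1 of the LPS-CPD-4645 group), at 0.45. Nor did it pass with limma-voom (adjusted p = 0.053), without a filter on low counts (edgeR, 0.077) or with only the 2 groups compared (edgeR, 0.061).

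Among the inhibitors and regulators, the largest rise was that of *Bcl3* (chromosome 7, 19808462 to 19822770), an atypical nuclear IkB protein that binds p50 and p52 homodimers. It stood at 1.83, 0.925, 0.398 and 0.741 CPM in sham-vehicle mice 1 to 4, from 10 to 64 counts, and at 30.9, 32.7, 36.2, 13.01 and 10.9 CPM in LPS-vehicle mice 1 to 5. The groups were far apart, and the LPS-vehicle mice themselves fell into 3 high and 2 low values. The log2 fold change was 4.58 (SE 0.43), 24-fold, with an adjusted p of 5e-07 from edgeR's test. The genes that overlap *Bcl3* on the other strand, *Gm16175* and *Gm16174*, had at most 3 and 12 counts in any library.

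*Nfkbia* (chromosome 12, 55489410 to 55492647) encodes IkB-alpha, the classical inhibitor that NF-kB itself induces. Sham-vehicle mice 1 to 4 had 32.5, 26.7, 34.2 and 44.3 CPM, and LPS-vehicle mice 1 to 5 had 133, 189, 229, 133 and 99.9 CPM. The lowest LPS-vehicle mouse was more than 2-fold above the highest sham-vehicle mouse, and the log2 fold change was 2.18 (SE 0.21, adjusted p = 7.4e-07 from edgeR). *Tnfaip3* (chromosome 10, 19000910 to 19015657), which encodes A20, a ubiquitin-editing enzyme that shuts down signalling upstream of IKK, averaged 5.12 ± 1.44 CPM (SD, n = 4) without and 25.8 ± 14.7 CPM (n = 5) with LPS and rose 4.97-fold. *Nfkbiz* (chromosome 16, 55811375 to 55838899), which encodes IkB-zeta, a nuclear cofactor needed for a subset of NF-kB target genes, averaged 6.65 ± 1.14 and 25.7 ± 6.91 CPM and rose 3.82-fold.

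*Nfkbie* (chromosome 17, 45555703 to 45563169), which encodes IkB-epsilon, a cytosolic inhibitor, was the member whose groups overlapped. Sham-vehicle mice 1 to 4 had 2.48, 2.37, 2.51 and 3.46 CPM, and LPS-vehicle mice 1 to 5 had 7.38, 9.85, 9.96, 4.03 and 2.59 CPM. LPS-vehicle mouse 5 therefore lay within the sham-vehicle range, while mice 1 to 3 lay more than 2-fold above it. The log2 fold change was 1.30 (SE 0.33, adjusted p = 0.0087 from edgeR), and limma-voom gave 1.13 and an adjusted p of 0.062.

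The LPS-vehicle mice kept nearly the same order from member to member. Mouse 4 was among the lowest 2 of the 5 mice for 10 members and mouse 5 for 9, the exception being *Rel*, and mouse 5 was the lowest for 9. Mice 2 and 3 were each among the highest 2 for 9 members. Mouse 2 has the deepest library of the series and mouse 3 the shallowest, and the part of depth in this order was not tested. The summed levels of the 6 monocyte and macrophage markers were 115, 138 and 118 CPM in mice 1 to 3 and 71.3 and 59.3 CPM in mice 4 and 5. The summed levels of the 7 neutrophil markers were 86.2, 266 and 105 CPM in mice 1 to 3 and 65.8 and 62.8 CPM in mice 4 and 5. The endothelial markers summed to 382, 459, 217, 410 and 449 CPM in LPS-vehicle mice 1 to 5. The astrocyte markers summed to 1240, 1330, 958, 987 and 1190 CPM, and mouse 3 was the lowest in both. The part of all these cells in the spread of the members was not tested. In the LPS-CPD-4645 group mice 3 and 4 were each the lowest for 5 members and never the highest, and mice 1 and 2 were each the highest for 5 and never the lowest.

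**Figure D2:**
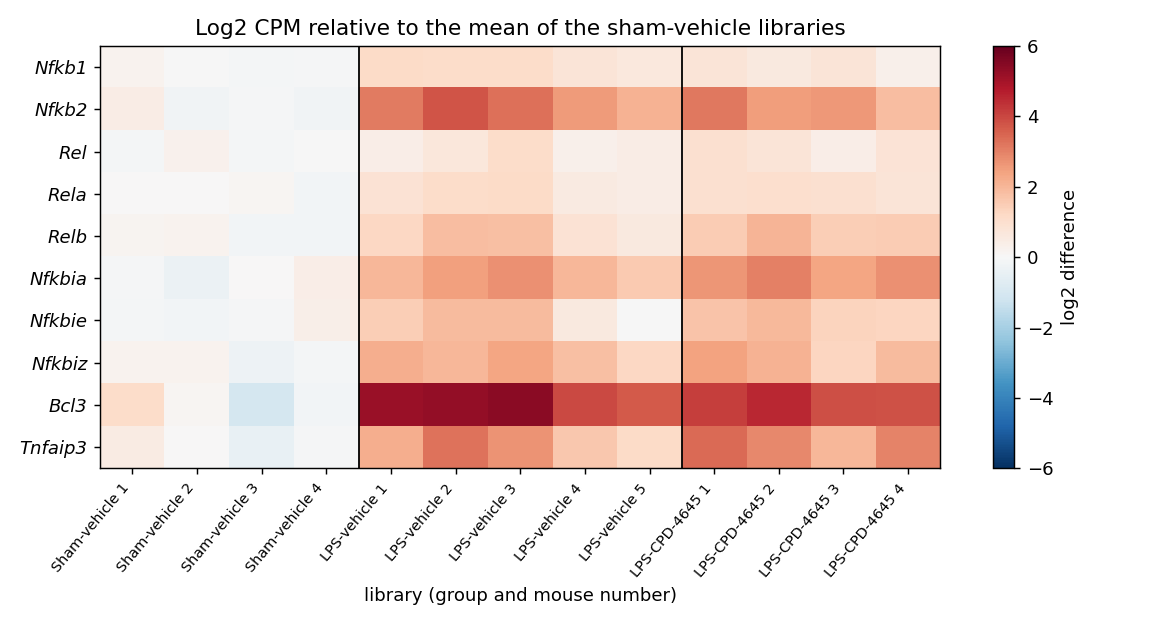
Log2 CPM of each member (rows) in each of the 13 libraries (columns, by group and mouse number), relative to the mean log2 CPM of the sham-vehicle libraries, on a colour scale from -6 to 6. LPS-vehicle mice 4 and 5 are paler than mice 1 to 3 in most rows, and *Bcl3* has the strongest colour in all 9 LPS libraries.

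Under CPD-4645, *Nfkbia* was 1.43-fold higher than after LPS alone, and the other 9 members did not pass the test of the difference between the LPS groups. The count was thus 1 of 10 higher and 0 lower, where 14.1% of all genes tested rose and 16.4% fell. No member differed by 2-fold in either direction (0 and 0, also at an unadjusted p under 0.05 and with limma-voom and DESeq2), against 1.70% of all genes higher and 4.19% lower. At an unadjusted p under 0.05 in edgeR's test 2 members were lower, *Nfkb1* and *Bcl3*, and limma-voom and DESeq2 each called 1 member lower, *Nfkb1*. The groups overlapped for all 10 members, where 11.1% of all genes lay wholly higher and 12% wholly lower. The median log2 fold change of the members was 0.12, and that of all genes was -0.02.

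*Nfkbia* stood at 215, 279, 175 and 228 CPM in LPS-CPD-4645 mice 1 to 4, against 99.9 to 229 CPM after LPS alone. The difference ran upward, and 3 of the 5 LPS-vehicle mice lay below every LPS-CPD-4645 mouse. The log2 fold change was 0.52 (SE 0.19), and the adjusted p of 0.049 from edgeR's test was just inside the threshold. It did not pass without sham-vehicle mouse 1 or 3, LPS-vehicle mouse 1, 4 or 5, or CPD-4645-treated mouse 1, 2 or 4, at log2 fold changes of 0.52, 0.53, 0.47, 0.47, 0.39, 0.55, 0.40 and 0.53. It did not pass with DESeq2 either (0.52, adjusted p = 0.095). Without the pair of shallowest libraries it was 0.71, with an adjusted p of 0.013 from edgeR.

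*Bcl3* had the largest difference in the other direction. LPS-CPD-4645 mice 1 to 4 had 14.8, 19.3, 12.5 and 11.8 CPM, which lay below LPS-vehicle mice 1 to 3 and in the range of LPS-vehicle mice 4 and 5 or above it. The log2 fold change was -0.75 (SE 0.34, 95% interval -1.45 to -0.04), and it did not pass after adjustment (adjusted p = 0.10 from edgeR). It passed without LPS-vehicle mouse 4 or 5, at -0.91 and -0.94, and without a filter on low counts, at -0.75 (adjusted p = 0.047 from edgeR). *Nfkb1* was at 27.8, 23.8, 27.5 and 20.2 CPM in LPS-CPD-4645 mice 1 to 4, and its log2 fold change was -0.34 (SE 0.13, 95% interval -0.62 to -0.07). Its adjusted p was 0.054 in edgeR's test, and it passed without LPS-vehicle mouse 4 or 5, at -0.39 and -0.42, with limma-voom, at -0.35, and with DESeq2, at -0.34. For *Nfkb2*, at 8.86 ± 3.18 CPM (SD, n = 4), the log2 fold change was -0.50 with a 95% interval of -1.12 to 0.12.

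The remaining 6 members did not pass in this comparison, and their intervals show which changes the data leave possible. For *Nfkbiz*, at 25.9 ± 7.87 CPM (SD, n = 4), the log2 fold change was 0.02 with a 95% interval of -0.43 to 0.46, and it turned negative without LPS-vehicle mouse 4 or 5, or CPD-4645-treated mouse 1 or 2, at -0.02, -0.12, -0.15 and -0.02. For *Rela*, at 52.6 ± 3.89 CPM, it was 0.07 with an interval of -0.20 to 0.33. Its sign changed without LPS-vehicle mouse 4 or 5, at 0 after rounding and at -0.02. The intervals of *Nfkbiz* and *Rela* both lie within a 2-fold change in either direction. *Tnfaip3* ran at 52.8, 37.1, 19.8 and 39.5 CPM in LPS-CPD-4645 mice 1 to 4, and its log2 fold change was 0.53 (SE 0.33, 95% interval -0.17 to 1.23). Without LPS-vehicle mouse 2, which had the highest *Tnfaip3* level of its group at 48.1 CPM, it passed at 0.91. The log2 fold changes were 0.32 for *Relb*, 0.28 for *Nfkbie* and 0.16 for *Rel*, with 95% intervals of -0.14 to 0.79, -0.37 to 0.93 and -0.24 to 0.56.

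**Figure D3:**
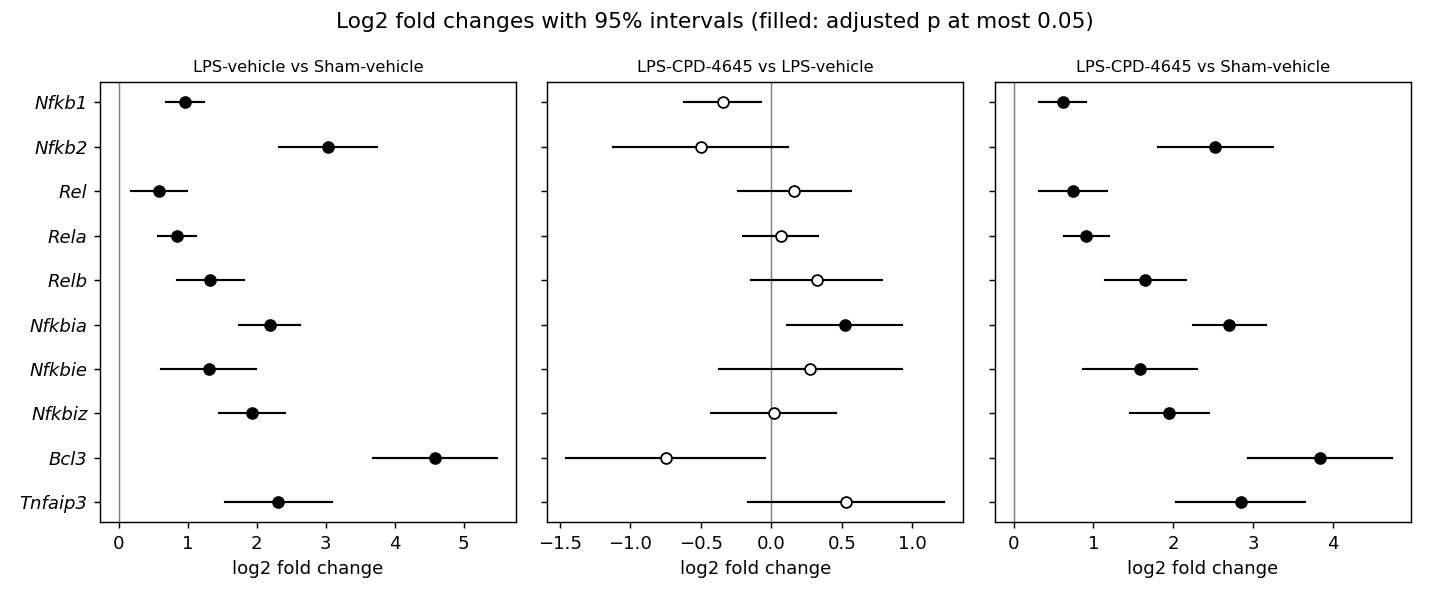
Log2 fold change of each member (points, x axis) with its 95% interval (lines) in the 3 comparisons, one panel each, with a separate x scale in each panel. Filled points have an adjusted p of at most 0.05. All 10 points are filled in both comparisons with sham-vehicle mice, and in the comparison of the LPS groups only *Nfkbia* is filled.

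Compared with the same sham-vehicle mice, LPS-CPD-4645 mice showed a rise of all 10 members, and 7 rose at least 2-fold, where 19.5% of all genes rose and 6.11% rose at least 2-fold. None fell in edgeR's test (0, also 0 at an unadjusted p under 0.05 and with limma-voom and DESeq2), where 19.3% of all genes fell and 4.98% fell at least 2-fold. The lowest LPS-CPD-4645 value exceeded the highest sham-vehicle value for all 10 members, an arrangement seen upward in 18.7% of the genes tested. Both comparisons with sham-vehicle mice use the same 4 control libraries, so their values are given side by side. For *Nfkbia* the log2 fold change was 2.18 after LPS alone and 2.70 (SE 0.22) with CPD-4645, and for *Tnfaip3* it was 2.31 and 2.84 (SE 0.39). For *Bcl3* it was 4.58 and 3.84 (SE 0.43), for *Nfkb2* 3.03 and 2.53 (SE 0.34), and for *Nfkb1* 0.96 and 0.61 (SE 0.14). The direct comparison of the LPS groups, above, is the test of these differences.

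Per kb of exon, which allows members to be compared with each other, *Nfkbia* had the highest level in every group, at 21.8 ± 4.64 (SD, n = 4), 99.4 ± 32.7 (n = 5) and 142 ± 27.3 CPM per kb (n = 4) in sham-vehicle, LPS-vehicle and LPS-CPD-4645 mice. *Rela* was next, at 10.3 ± 0.83, 18.6 ± 3.98 and 19.4 ± 1.43 CPM per kb. *Bcl3* was the ninth of the 10 in sham-vehicle mice at 0.526 ± 0.329 CPM per kb, where its range overlapped those of *Rel* above and *Nfkb2* below it, the third in LPS-vehicle mice at 13.4 ± 6.4, and the fifth in LPS-CPD-4645 mice at 7.88 ± 1.84. In LPS-vehicle mice the ranges of neighbours in the order overlapped for every pair below *Nfkbia*, so the order of *Rela*, *Bcl3*, *Relb*, *Nfkb1*, *Nfkbiz*, *Tnfaip3*, *Nfkb2*, *Nfkbie* and *Rel* is not resolved step by step. *Rel* was the lowest in both LPS groups, at 0.87 ± 0.21 and 0.963 ± 0.147 CPM per kb.

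Ratios of levels per kb within a library, which do not depend on its scaling, gave the balance between members as a description. *Nfkbia* over *Rela* was 1.63 to 3.05 in sham-vehicle mice, 4.45 to 6.31 in LPS-vehicle mice and 5.57 to 8.58 in LPS-CPD-4645 mice, so each LPS mouse had a higher ratio than each sham-vehicle mouse. *Bcl3* over *Nfkb1*, whose p50 product Bcl-3 binds, was 0.0594 to 0.217, 0.963 to 2.37 and 1.01 to 1.81 in the same groups. *Nfkb2* over *Nfkb1* moved from 0.0806 to 0.106 in sham-vehicle mice to 0.243 to 0.569 in LPS-vehicle mice. *Rel* over *Rela* overlapped between all 3 groups, at 0.0466 to 0.0658, 0.0398 to 0.0547 and 0.0384 to 0.058. *Tnfaip3* over *Nfkbia* overlapped as well, at 0.0364 to 0.0748, 0.0383 to 0.0873 and 0.039 to 0.0846.

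The genes most like a member were sought by the root mean square difference of log2 CPM over the 13 libraries, each gene centred on its mean, for the 7 members that rose at least 2-fold after LPS. All 13 points come from the same 3 groups, so genes that share a group pattern score as alike. For *Nfkb2* the nearest coding genes were *Irak3* (difference 0.24) and *Pik3r5* (0.29), where the median coding gene differed by 1.39. For *Bcl3* they were *Timp1* (0.38) and *Il1rn* (0.41), against a median of 2.13. These medians lie near the SD of log2 CPM of the members themselves, 1.402 for *Nfkb2* and 2.185 for *Bcl3*. They are therefore no yardstick of likeness, and the neighbours are given as a description. For *Relb* the nearest coding genes were *Csrnp1* (0.14) and *Trib3* (0.25), and for *Nfkbie* *Csrnp1* (0.30) and *Stat5a* (0.32). *Zfp36*, which encodes an RNA-binding protein that destabilises inflammatory transcripts, was near both *Nfkbia* (0.27) and *Tnfaip3* (0.31), with *Tifa* (0.28) and *Ccrl2* (0.30) as the other neighbours. For *Nfkbiz* they were *Aff1* (0.21) and *Ier3* (0.24).

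Genes upstream of the members, in the signalling chain, were also followed after LPS, where 11.1% of all genes tested rose and 8.86% fell. Of the 11 genes of the IKK complex and its kinases, 5 rose and 0 fell (edgeR, also 0 at an unadjusted p under 0.05, with limma-voom and with DESeq2), with a median log2 fold change of 0.23. The largest rises were those of *Ikbke*, an IKK-related kinase, at 3.17 (SE 0.36), *Ripk1*, the kinase of the TNF receptor complex, at 1.40 (SE 0.47), and *Map3k14*, the NIK kinase of the non-canonical pathway, at 0.82 (SE 0.19). The groups overlapped for *Ripk1* (adjusted p = 0.043 from edgeR), with LPS-vehicle mouse 3, at 4 counts and 0.504 CPM, below the lowest sham-vehicle mouse at 0.677 CPM. The other rises, named after their values were seen, were 0.40 for *Ikbkb* and 0.31 for *Tbk1*. The count of 5 was 3 without any 1 of the 4 sham-vehicle mice or without LPS-vehicle mouse 1 or 4. Of the 16 genes of receptor adaptors and ubiquitin ligases, 8 rose and 0 fell (edgeR, with 0 lower also at an unadjusted p under 0.05, in limma-voom and in DESeq2). The rises were led by *Birc3*, a ubiquitin ligase gene induced by NF-kB, at 3.39 (SE 0.38), *Myd88*, the adaptor of most Toll-like receptors, at 1.75 (SE 0.18), and *Traf1* at 1.43 (SE 0.36).

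Of 12 other inhibitors of the pathway, 4 rose and 1 fell after LPS, beside the same 11.1% and 8.86% of all genes. *Irak3*, which blocks release of IRAK kinases from the Toll-like receptor complex, rose by 3.33 (SE 0.30) on the log2 scale, *Zc3h12a*, which encodes the ribonuclease Regnase-1, by 2.92 (SE 0.34), and the A20-binding partners *Tnip1* and *Tnip2* by 1.16 (SE 0.15) and 0.66 (SE 0.11). *Rnf11*, a partner of A20, fell by 0.31 (SE 0.09), which did not pass without sham-vehicle mouse 1 or 4. *Nfkbib*, which encodes IkB-beta, had a log2 fold change of 0.05 (SE 0.10) after LPS, which did not pass the test. Of 18 classical target genes of NF-kB, 16 were tested, and 14 of them rose and 0 fell (edgeR, also 0 at an unadjusted p under 0.05, with limma-voom and with DESeq2), with a median of 3.85, led by *Sele* at 6.16 (SE 0.82), *Csf3* at 5.84 (SE 0.71) and *Il6* at 5.46 (SE 1.003). In sham-vehicle mice 1 to 4 *Sele* had 15, 0, 0 and 0 counts and *Il6* 6, 0, 4 and 6, so their fitted fold changes rest on a group at or near 0 and depend on the prior count. *Sod2* and *Cd83*, named after their values were seen, did not pass, at 0.21 and -0.05, and *Ccl20* and *Cfb* were too low to be tested.

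**Figure D4:**
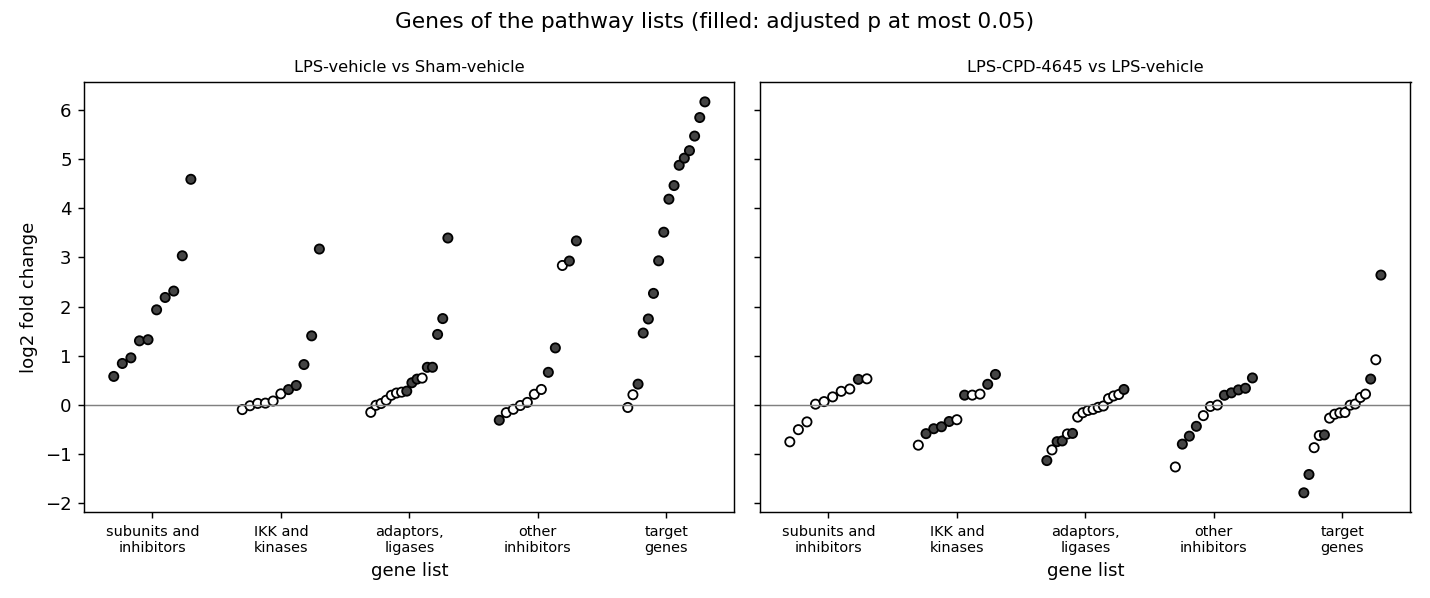
Log2 fold change (y axis) of the tested genes of the 10 subunits and inhibitors and of 4 pathway lists (x axis), after LPS (left) and under CPD-4645 relative to LPS-vehicle mice (right). Each point is a gene, in increasing order within its list, and filled points have an adjusted p of at most 0.05. The filled points on the left lie above 0 with the exception of *Rnf11*, and those on the right lie on both sides of 0 in each pathway list.

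Between the LPS groups the lists held genes that rose and genes that fell, where 14.1% of all genes tested rose and 16.4% fell. Of the 11 IKK and kinase genes, 3 rose and 4 fell under CPD-4645: *Tab1*, at 0.62 (SE 0.13), *Map3k14*, at -0.58 (SE 0.19), and *Ikbkb*, which encodes IKK-beta, at -0.48 (SE 0.10), changed most. The others, named after their values were seen, were *Tab2* (0.42), *Map3k7* (0.20), *Chuk* (-0.44) and *Ikbkg* (-0.34). Of the adaptors and ligases, 1 rose and 4 fell, with the largest falls for *Irak4*, at -1.13 (SE 0.29), *Ticam1*, at -0.75 (SE 0.19), and *Tradd*, at -0.73 (SE 0.16). *Myd88* was the remaining fall, at -0.58. *Irak2*, like *Myd88* named here after its value was seen, was the gene that rose, at 0.32 (SE 0.11), and it did not pass without sham-vehicle mouse 1, LPS-vehicle mouse 1, 4 or 5, or CPD-4645-treated mouse 1 or 2, while without LPS-vehicle mouse 2 the count was 2. Of the other inhibitors, 5 rose and 3 fell. *Nfkbib* rose by 0.55 (SE 0.10), with every LPS-CPD-4645 mouse above every LPS-vehicle mouse, and *Irak3* and *Nfkbid*, which encodes the nuclear IkB protein IkB-NS, fell by 0.80 (SE 0.26) and 0.63 (SE 0.23). The other changes of this list were those of *Tnip2* (0.34), *Rnf11* (0.31), *Cyld* (0.25), *Tax1bp1* (0.20) and *Tnip1* (-0.43). Of the 16 target genes tested, 2 rose and 3 fell. *Cxcl10* at 2.64 (SE 0.67), *Sele* at -1.78 (SE 0.59) and *Il1b* at -1.41 (SE 0.51) changed most. *Bcl2l1* (0.53) and *Vcam1* (-0.61), named after their values were seen, were the others. The LPS groups overlapped for *Cxcl10*, *Sele*, *Il1b* and *Vcam1*, and only for *Bcl2l1* were they apart.

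These counts depend on single mice. The count of falls under CPD-4645 among the kinases was 2 without LPS-vehicle mouse 1, or CPD-4645-treated mouse 3 or 4. Among the other inhibitors the falls numbered 0 without LPS-vehicle mouse 2, or CPD-4645-treated mouse 3 or 4 and 1 without LPS-CPD-4645 mouse 2, and the rises 3 without LPS-vehicle mouse 2 or 5 and 2 without LPS-CPD-4645 mouse 2. Among the target genes the falls numbered 0 without LPS-CPD-4645 mouse 3 and 1 without LPS-vehicle mouse 2, or CPD-4645-treated mouse 2 or 4, and the rises 4 without LPS-vehicle mouse 2. Relative to sham-vehicle mice, where 19.5% of all genes tested were higher and 19.3% lower, LPS-CPD-4645 mice had 5 genes higher and 1 lower among the kinases, 7 and 1 among the adaptors, 5 and 1 among the other inhibitors, and 14 and 0 among the target genes (0 lower also at an unadjusted p under 0.05 and with limma-voom and DESeq2). The single lower genes of the kinases, the adaptors and the other inhibitors were *Ikbkg* (-0.43, named after its value was seen), *Tradd* and *Itch*. *Tradd*, at -0.49 (SE 0.17), did not pass without sham-vehicle mouse 2 or 3 or LPS-CPD-4645 mouse 3 or 4, and *Itch*, at -0.23 (SE 0.09), did not pass without sham-vehicle mouse 1, 3 or 4 or any 1 of the 4 LPS-CPD-4645 mice.

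Markers of neutrophils and of monocytes and macrophages moved with both comparisons. The 7 neutrophil markers summed to 3.65 to 10.8 CPM in sham-vehicle mice, 62.8 to 266 CPM in LPS-vehicle mice and 7.68 to 26.9 CPM in LPS-CPD-4645 mice. Of the 6 tested, 5 rose after LPS and all 6 fell under CPD-4645, and *Ly6g* was too low to be tested. The 6 monocyte and macrophage markers summed to 7.41 to 11.2, 59.3 to 138 and 39.7 to 55.5 CPM in the same groups, with 4 of 5 tested higher after LPS and 2 lower under CPD-4645. Among resident cells, the 6 endothelial markers summed to 229 to 364, 217 to 459 and 239 to 359 CPM, and the 5 astrocyte markers to 622 to 781, 958 to 1330 and 786 to 1110 CPM. Of the endothelial markers 3 rose and 2 fell after LPS (*Tek* and *Slco1a4*), and 3 fell under CPD-4645 (*Pecam1*, *Cldn5* and *Flt1*). Of the astrocyte markers 2 rose after LPS. The 5 microglia markers summed to 166 to 224, 113 to 217 and 117 to 142 CPM, and the 6 markers of pericytes and smooth muscle to 163 to 248, 130 to 194 and 154 to 207 CPM. After LPS 2 microglia markers fell, and 1 marker of pericytes and smooth muscle rose and 4 fell. Under CPD-4645 1 microglia marker fell. Between the LPS groups the log2 fold changes of the members lay between -0.75 (*Bcl3*) and 0.53 (*Tnfaip3*). Those of *Bcl3*, *Nfkb2* and *Nfkb1* were negative, as were those of all 6 tested neutrophil markers, and those of the other members were positive. The 5 neuron markers summed to 8160 to 9350, 6890 to 7690 and 7230 to 9470 CPM, and the 4 oligodendrocyte markers to 3790 to 5590, 2490 to 3510 and 3230 to 4230 CPM. Both sums were lower in every LPS-vehicle mouse than in any sham-vehicle mouse. None of the 5 neuron markers passed the test after LPS, however (adjusted p = 0.06 to 0.19 from edgeR). Of the oligodendrocyte markers 3 fell after LPS and 2 rose under CPD-4645, and of the neuron markers *Rbfox3* rose under CPD-4645. The part of these cells in the levels of the members was not tested.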

How the data were processed

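RNA of the vessel-enriched brain fraction of 13 mice was sequenced after polyA selection with a stranded kit. The deposited values are raw counts per gene, which the authors made with STAR 2.5.2a against GRCm38 and GENCODE M9, and which strand column was counted is not given in the sources used here. CPM were computed here. Counts were tested with edgeR 4.0.16 (R 4.3.3): genes passing filterByExpr (minimum count 10, minimum total 15), TMM scaling, and 1 quasi-likelihood fit over all 13 libraries with no covariate, adjusted by Benjamini-Hochberg over all tested genes. The study's limma-voom (limma 3.58.1), DESeq2 1.42.0 and the settings named in the closing section were alternatives. The fit of LPS-vehicle against sham-vehicle mice was run on simulated counts as a check of the script. Positions and exon lengths came from GENCODE M21 (GRCm38).

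Groups came from the labels. The p values measure the spread between these libraries. The members and lists were chosen with earlier results of these data known. All members were named, and from each list up to 3 called genes with the largest changes per comparison, any of the other inhibitors, and for each member called at 2-fold or more after LPS the 2 nearest coding genes. Replicate pairs differed by more than sampling noise (chi-square per gene 9.85 to 61.4).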

Additional observations from a re-analysis of the deposited data

Results flagged for a closer look

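Among 30 sets of values, the 10 members in each of 3 groups, 3 held a mouse that lay far from the rest of its group by Dixon's criterion, which chance meets in about 1 in 20 groups. *Nfkb2* stood at 2.03 CPM in sham-vehicle mouse 1, where the next value was 1.39 CPM and the gap was 0.851 of the range of the group. *Nfkbie* stood at 3.46 CPM in sham-vehicle mouse 4, with the next at 2.51 CPM and a gap of 0.874 of the range. *Relb* stood at 29.0 CPM in LPS-CPD-4645 mouse 2, with the next at 20.2 CPM and a gap of 0.953 of the range. In all 3 the distant mouse was the highest of its group.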

How the results depend on the processing

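Each member was recomputed under 21 other settings: other tests, scalings and filters, only the 2 groups compared, a replicate block, each mouse left out, and, chosen after seeing the data, without the pair of shallowest libraries. Relative to sham-vehicle mice, 197 of 210 values after LPS and 210 of 210 with CPD-4645 kept direction and call. The other 13 no longer passed, 12 for *Rel* and 1 for *Nfkbie*. Between the LPS groups 178 of 210 kept both, 11 no longer passed (all *Nfkbia*), 12 newly passed and 9 changed sign. Without the pair of shallowest libraries 9 members were higher after LPS, 7 of them at least 2-fold. Between the LPS groups the count higher, 1, was 0 with DESeq2, with only the 2 groups and with the replicate block, and 0 to 2 when single mice were left out. The count lower, 0, was 1 with limma-voom, with DESeq2 and with a mean count of at least 50 (*Nfkb1* in each). It was also 1 without a filter on low counts (*Bcl3*), and 0 to 2 when single mice were left out. Whether the replicate numbers mark pairs of mice is not settled by these values. Same-numbered deviations correlated at -0.03 to 0.11, over 0.1 in 1 of 12 pairs. In 6 of 12 checks, each against the 4 or 5 libraries of another group, the best correlation was with the same number. With the replicate block 3 members were lower under CPD-4645: *Nfkb1* at -0.42, *Nfkb2* at -0.69 and *Bcl3* at -0.88, and the rise of *Rel* after LPS did not pass (edgeR, adjusted p = 0.063). Uncalled values that changed sign were those of *Rela*, -0.01 with the block and -0.02 to 0.15 with single mice left out, and *Nfkbiz*, -0.15 with the block, -0.052 without the pair of shallowest libraries and -0.15 to 0.20 with single mice left out. The causes were not tested. Of 504 list counts, 453 stayed within 1.5-fold. *Bcl3* had 10 to 64 counts and *Nfkb2* 26 to 71 per sham-vehicle library.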
